A study of Verbena bonariensis with 6 samples.

Results

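DELLA proteins are the gibberellin repressors of the GRAS family of plant transcriptional regulators, and 12 of the 9740 clusters in the transcription factor table of *Verbena bonariensis* leaves were annotated as DELLA. The authors numbered their transcript models as clusters. The 12 were all the clusters of the GRAS family, which has 145 in the table, whose best match in the NR or Swissprot protein database was named DELLA, GAI, RGL or RGA. They fell under 6 best matches in NR, all from *Sesamum indicum*. Membership rests on these names, not on measured levels.

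Leaf RNA of the cultivar Finesse was sequenced in 6 libraries from plants 3 months old. The control group (3 libraries) came from untreated greenhouse plants, and the cold group (3 libraries) from plants that had spent 24 h at 4°C and then 4 h at -4°C. The labels call the 3 libraries of a group biological replicates, and no source used here states the time of day of either harvest. With transcription factors alone in the table, leaf markers could not be checked. The cold libraries were the shallower ones, with whole-library totals estimated at 13075804 to 14320407 reads against 16949864 to 20694844 in control. The table of transcription factors held 722556 to 791041 estimated counts in cold and 991180 to 1213366 in control.

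Gibberellin promotes growth by removing DELLA proteins. The hormone binds its receptor GID1, the complex binds a DELLA protein through the N-terminal motif that gave the family its name, and an F-box protein (SLEEPY1 in *Arabidopsis thaliana*, GID2 in rice) marks the DELLA for degradation. A DELLA that is not degraded holds back growth by binding other transcription factors, among them the phytochrome-interacting factors (PIF). In *A. thaliana* the cold-induced CBF factors lower gibberellin and let DELLA protein build up. RNA levels such as those below say nothing of that step, since it acts on the protein.

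The annotation divided the 12 clusters into 3 kinds. Cluster-14918.101911, matched to a GAI-like DELLA, and Cluster-14918.101795 and Cluster-14918.36041, both matched to GAI1, were the only clusters of the table with the KEGG orthology term DELLA. Their scores against a Swissprot DELLA were 2103, 1946 and 1962, and the coding regions given by the authors were 1887, 1743 and 1890 bases long. A further 6 clusters were matched to RGL1-like proteins of *S. indicum*, which NR names DELLA, with NR scores of 950 to 1479. Their Swissprot scores were lower than those of the first 3 clusters, from 396 to 419, against RGL1 or RGL2 of *A. thaliana*. They had no KEGG term. The remaining 3 clusters, Cluster-14918.210358, Cluster-14918.212948 and Cluster-14918.795, were named DELLA by Swissprot alone, through the pumpkin protein GAIP with scores of 304 to 356. Their better match, with NR scores of 970 to 1316, was scarecrow-like protein 18 of *S. indicum*, which is a GRAS factor outside the DELLA group. By annotation, then, the name DELLA was strong for 3 clusters and weaker for the 6 that both databases name DELLA. It was weakest for the 3 named so by Swissprot alone. The table holds no sequences, so the DELLA motif itself was not looked for.

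The 3 clusters with the KEGG term held 96.4% ± 0.059 (SD, n = 3) of the FPKM of all 12 clusters in control and 84.3% ± 0.926 in cold. FPKM corrects for length and for library depth, so levels of different clusters can be set side by side on it. Ranked by mean FPKM among the 145 clusters of the GRAS family, Cluster-14918.101911 was at rank 12 in control and rank 4 in cold. Cluster-14918.101795 was at ranks 20 and 16, and Cluster-14918.36041 at ranks 26 and 28. A better rank in cold was no rise in level. The mean FPKM of Cluster-14918.101911 went from 32.1 in control to 25.8 in cold. The summed FPKM of the whole GRAS family went from a mean of 1199.8 to 564.4. The order among the 3 was the same in every library, and their values did not overlap within a group.

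Both GAI1 clusters were lower in cold, and the GAI-like cluster passed the test for a fall only where libraries were scaled to their whole totals. GAI and GAI1 are DELLA proteins that in other plants restrain stem and leaf growth. Cluster-14918.101795 had 19.84, 19.16 and 18.39 FPKM in control replicates 1, 2 and 3, and 9.56, 10.10 and 10.41 FPKM in cold replicates 1, 2 and 3. Each cold value was close to the others and far below each control value. By edgeR's quasi-likelihood test on the estimated counts, the log2 fold change of cold over control was -0.69, with a standard error (SE) of 0.07 and an adjusted p of 0.000623. The other GAI1 cluster, Cluster-14918.36041, had 10.90, 11.31 and 12.03 FPKM in control and 5.05, 4.95 and 4.67 FPKM in cold. Again the groups did not overlap, and the log2 fold change reached -0.98 (SE 0.10, edgeR adjusted p = 0.000712). In whole leaves fewer cells of a type and less RNA per cell cannot be told apart.

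Cluster-14918.101911, the GAI-like DELLA, was the most abundant member in every library. It had 31.08, 33.18 and 32.12 FPKM in control and 24.82, 26.85 and 25.63 FPKM in cold, so that all cold values were below all control values on this scale. The edgeR test, which scales libraries by TMM factors computed over the table, gave a log2 fold change of -0.07 (SE 0.06, edgeR adjusted p = 0.352), and the normalized CPM of the groups overlapped. With whole-library totals, to which FPKM refers, the log2 fold change was -0.31 (SE 0.05, edgeR adjusted p = 0.00558). That scaling lowered the median log2 fold change of all tested clusters by 0.23, from -0.14 to -0.37. The GAI-like cluster thus lay close to the median of all clusters under both scalings, by its fitted values. The GAI1 clusters lay below that median under both, at -0.92 and -1.21 on whole-library totals. A fall of this size was not particular to them within the GRAS family. With TMM factors the median over the 93 other GRAS clusters tested was -0.97, with 39 lower and 9 higher. The GAI1 clusters were at -0.69 and -0.98 on that scaling.

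**Figure D1:**
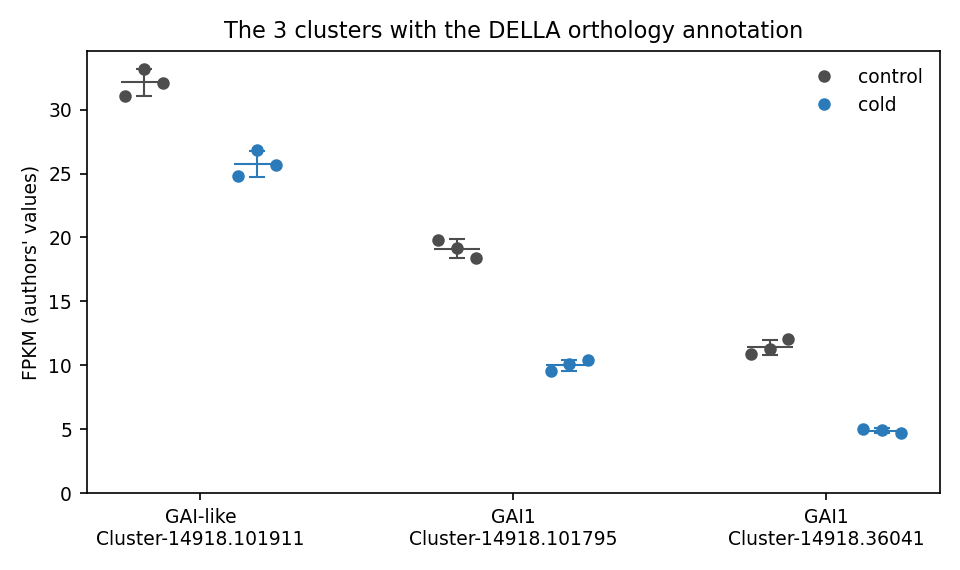
FPKM (vertical axis, authors' values) of the 3 clusters with the KEGG term DELLA in control (grey) and cold (blue) leaves; points are libraries, and the bar and whiskers are the mean and SD of 3 libraries. In none of the 3 clusters do the groups overlap on this scale, and the GAI-like cluster shows the smallest relative gap, from a mean of 32.1 to 25.8.

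The ratio of one cluster to another within a library does not depend on the scaling between libraries. Per unit length, Cluster-14918.101795 stood at 0.596 ± 0.037 (SD, n = 3) of the GAI-like cluster in control and at 0.389 ± 0.015 in cold. Cluster-14918.36041 stood at 0.355 ± 0.017 of it in control and at 0.190 ± 0.012 in cold. In log2 of the counts these ratios fell by 0.61 (SE 0.06) and by 0.90 (SE 0.06) from control to cold. The ratio of the GAI1 clusters to each other moved least. Cluster-14918.36041 stood at 0.598 ± 0.053 of Cluster-14918.101795 in control and at 0.489 ± 0.040 in cold, a log2 difference of -0.29 (SE 0.10). In each of the 3 pairs the cold libraries all lay on one side of the control libraries (exact two-sided permutation test, p = 0.1 for each, also after Benjamini-Hochberg adjustment over the 3 pairs, and the smallest p that 3 libraries against 3 allow). The corresponding odds ratios of the summed reads were 0.656 (exact 95% interval 0.601 to 0.716), 0.534 (0.472 to 0.603) and 0.814 (0.712 to 0.930), where the intervals cover counting error only.

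Together the 3 clusters had 61.8, 63.7 and 62.5 FPKM in control and 39.4, 41.9 and 40.7 FPKM in cold. The GAI-like cluster made up 51.3% ± 0.931 (SD, n = 3) of this sum in control and 63.3% ± 0.652 in cold. No p is given for such sums, because the members were chosen. All 3 clusters had whole counts in every library, whereas the clusters that share reads, described further on, had fractional ones.

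The sum of counts over clusters with the same best match, which the test uses, does not depend on how reads were divided between them, whereas a sum of FPKM does where the clusters differ in length. The GAI1 sum, over Cluster-14918.101795 and Cluster-14918.36041, was 30.7, 30.5 and 30.4 FPKM in control and 14.6, 15.1 and 15.1 FPKM in cold. Fitted with all 2296 tested sums of the table, its log2 fold change was -0.65 (SE 0.04, edgeR adjusted p = 3.40e-06), and -1.01 on whole-library totals. TMM factors were computed anew over the sums, at 1.10 in control and 0.90 to 0.91 in cold. For single clusters they were 1.05 to 1.06 and 0.95. This raises the log2 fold changes of sums against those of single clusters, so the 2 are not on the same scale. The GAI-like match had 1 cluster, with the same counts in both fits. Among the sums its log2 fold change was 0.05 (SE 0.05, edgeR adjusted p = 0.341), against -0.07 among the single clusters. With DESeq2 it was 0.13 (adjusted p = 0.0410) and on whole-library totals -0.31 (adjusted p = 0.000463), so the direction of the GAI-like match depended on the scaling. It was -0.038 when no filter on low counts was applied. Whole-library totals lowered the median log2 fold change of all sums by 0.36.

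Of the 12 clusters 7 had enough counts for the edgeR test on single clusters, and of these 3 were lower and 1 was higher in cold at an adjusted p under 0.05. Over all 5004 clusters tested 23.6% were lower and 21.9% higher. In normalized CPM all cold libraries lay below all control libraries in 3 of the 7 and above them in 2, against 34.3% and 29.6% of all clusters tested. On whole-library totals the GAI-like cluster joined the lower ones, making 4. The median log2 fold change over the 7 was -0.07, beside -0.14 over all clusters tested. Cluster-17215.0 passed the filter on low counts through its control libraries alone, and Cluster-14918.210358 and Cluster-14918.212948 through their cold libraries, so these counts are no support for a change of the group as a whole. Of the 6 sums 4 were tested, of which 1 was lower and 1 higher. Among all sums tested 37.7% were lower and 34.6% higher, or 1088 and 642 of 2296 on whole-library totals. In normalized CPM the GAI1 sum was lower and the scarecrow-like 18 sum higher in every cold library than in every control library, as were 41.3% and 36.5% of all sums in these directions.

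**Figure D2:**
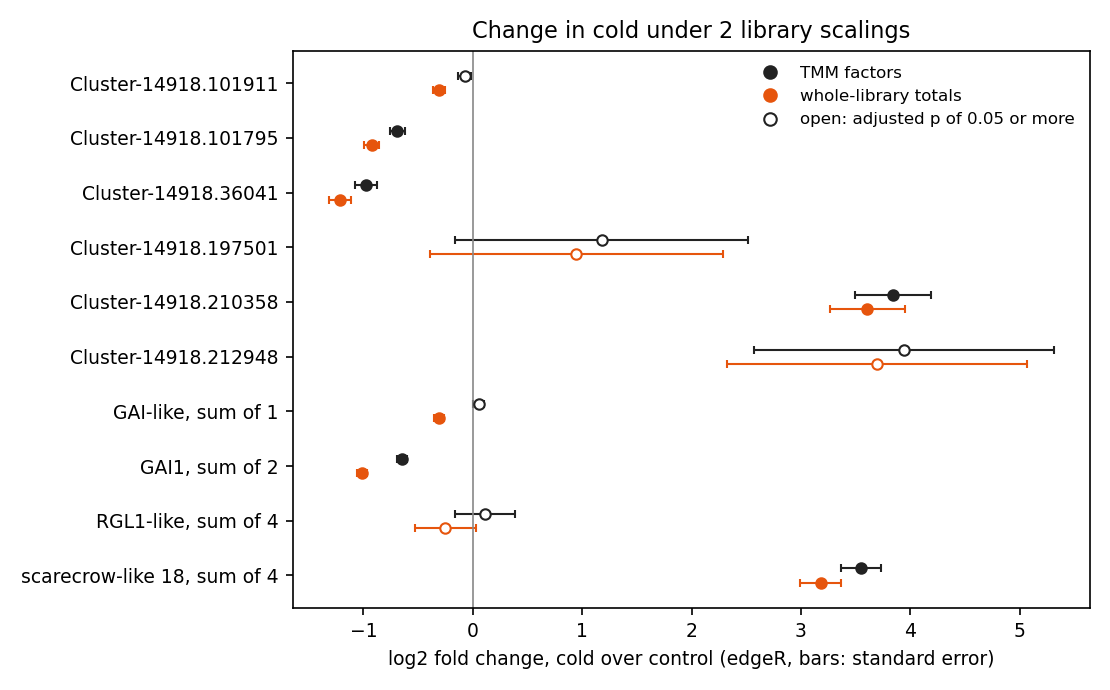
Log2 fold change (horizontal axis, cold over control, edgeR) of 6 tested clusters and of the 4 tested sums by best match, with standard errors, under TMM factors (black) and whole-library totals (orange); open points have an adjusted p of 0.05 or more. The GAI1 values are below 0 under both scalings, whereas the GAI-like sum is 0.05 under one and -0.31 under the other. TMM factors were computed apart for clusters and for sums. Cluster-17215.0, at 0 in cold, is left out because its fitted value is no estimate of a ratio.

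The RGL1-like match with the most clusters changed in which cluster the reads were assigned to, and its sum did not pass the test. RGL1 of *A. thaliana* is a DELLA named after the repressor RGA. This match had 4 clusters, each with a coding region of 1710 bases and an NR score of 1479. They differed in the flanks, which took every combination of 347 or 377 bases before the coding region with 191 or 199 bases after it. Cluster-17215.0 had 377 and 199, Cluster-14918.197501 had 347 and 199, Cluster-14918.187658 had 347 and 191, and Cluster-14918.23648 had 377 and 191.

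Cluster-17215.0 was assigned reads in control only. The estimated counts were 23.78, 43.00 and 16.75 in its control libraries and 0 in each cold library. With a floor of 3 counts over the cold group it was at least 16.6-fold lower in cold (edgeR adjusted p = 0.00827), and at least 10.7-fold lower without cold replicate 3. These floors take the assigned counts as they stand and do not cover error in dividing reads between the clusters of the match. Since it entered the test through its control libraries alone, this p describes the cluster and is no support for a change of the match. Cluster-14918.197501 had 14.22, 0 and 28.25 counts in control and 25.18, 23.00 and 9.51 in cold. Its groups overlapped, and its log2 fold change of 1.18 had an SE of 1.34 (edgeR adjusted p = 0.523). Cluster-14918.187658 was at 0 in control and had 2.82, 0 and 14.49 counts in cold, too few to be tested. Cluster-14918.23648 had no reads in any library.

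The counts of the single clusters were fractional but their sum was whole, with 38, 43 and 45 reads in control and 28, 23 and 24 in cold. On the FPKM scale the control libraries had sums of 1.11, 1.02 and 1.14 and the cold libraries 1.06, 0.86 and 0.83, so the groups overlapped. Its log2 fold change was 0.11 (SE 0.28, edgeR adjusted p = 0.726), and -0.25 on whole-library totals. Cluster-17215.0 held 62.6%, 100% and 37.2% of the reads of the match in control replicates 1, 2 and 3. In cold it was assigned 0 of 75 reads. Were each read assigned without error, this would allow a share of up to 4.00%. Error in dividing reads between clusters that share their coding length and score is not covered, so the figure is no firm limit. The other cluster with 377 bases before the coding region was at 0, so all reads of the match in cold were assigned to the clusters with 347. What set the assignment of these reads was not tested.

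**Figure D3:**
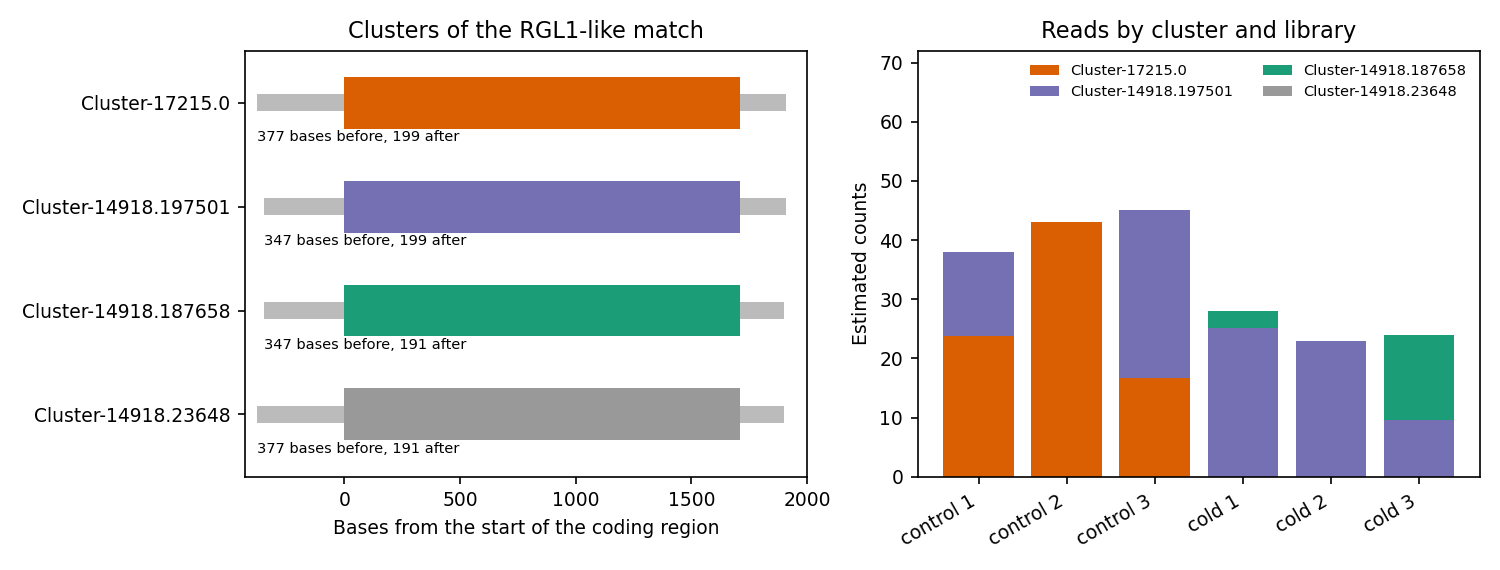
Left, the 4 clusters of the RGL1-like match drawn to scale in bases from the start of the coding region, with the coding region in colour and the flanks in grey. Right, estimated counts (vertical axis) of each cluster stacked by library; Cluster-17215.0 is present in the 3 control libraries and at 0 in the 3 cold ones, while the summed heights are 38 to 45 counts in control libraries against 23 to 28 in the shallower cold ones.

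The other RGL1-like matches had 1 cluster each and very few reads. Cluster-23289.0, 1343 bases long, had 1, 3 and 5 reads in control and 2, 5 and 9 in cold. Cluster-12876.0, 696 bases long and coding throughout, had 2 reads in each control library and 1, 0 and 1 in cold. Neither was tested, and nothing can be said of their change at this depth. All 6 RGL1-like clusters together made 1.42, 1.37 and 1.60 FPKM in control and 1.37, 1.20 and 1.55 in cold, values that overlapped.

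The clusters matched to scarecrow-like protein 18 held the only rise among the members that passed edgeR's test. Cluster-14918.210358 had 0.18, 0.22 and 0.31 FPKM in control and 2.45, 3.30 and 3.11 FPKM in cold. The lowest cold library was far above the highest control library, and the log2 fold change was 3.84 (SE 0.35, edgeR adjusted p = 0.000431). Both this cluster and Cluster-14918.212948 entered the test through their cold libraries. Their p therefore describe the clusters and are no support for a change of the members as a group. Cluster-14918.212948 had 0.65, 0.06 and 0 FPKM in control and 3.10, 3.47 and 2.39 FPKM in cold. Its groups did not overlap either, but the control libraries differed widely among themselves, and the adjusted p was 0.0620 with a log2 fold change of 3.94 (SE 1.37). Without control replicate 1, the library with most of its control reads, the log2 fold change was 6.82 and the adjusted p 0.00965. DESeq2 gave an adjusted p of 0.00458 with all libraries, and over all alternatives run the adjusted p ranged from 0.00115 to 0.156. On simulated clusters 28.8% of DESeq2's calls were false, against 4.44% of edgeR's. At a simulated log2 change of 3, DESeq2 found 83.0% of the changed clusters and edgeR 37.7%. Only 200 clusters were changed there, far fewer than were called in the real data. These shares therefore do not carry over, and they do not decide between the 2 calls. Cluster-14918.795, with 0, 0.73 and 0.44 FPKM in control and 0.18, 0.47 and 0.18 in cold, was not tested.

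Summed over the match, which holds these 3 clusters and Cluster-29318.0, the reads were 28, 29 and 23 in control and 152, 193 and 173 in cold. Cluster-29318.0 is not a member, since Swissprot matches it to SCARECROW, and it had 4.20 counts in cold replicate 3 alone. The log2 fold change of the sum was 3.55 (SE 0.18, edgeR adjusted p = 7.17e-07), and 3.18 on whole-library totals. Leaving out each library in turn gave values from 3.41 to 3.65. The make-up of the sum differed between libraries in control, where Cluster-14918.212948 held 75.1%, 8.28% and 0% of the reads, and was more even in cold, with 51.1%, 45.7% and 38.1%. The authors' annotation gives Cluster-14918.210358 and Cluster-14918.212948 a pair of coding segments each, in different frames. Cluster-14918.210358 carries, besides, a Pfam match to the acetyl co-enzyme A carboxylase alpha subunit, an enzyme of fatty acid synthesis. With the members taken from NR names alone, an alternative chosen after seeing the data, these clusters drop out, and 0 of 5 tested clusters and 0 of 3 tested sums were higher in cold by edgeR, at an adjusted or an unadjusted p under 0.05. By DESeq2 0 of the clusters and 1 of the sums, the GAI-like one (adjusted p = 0.0410), were higher.

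**Figure D4:**
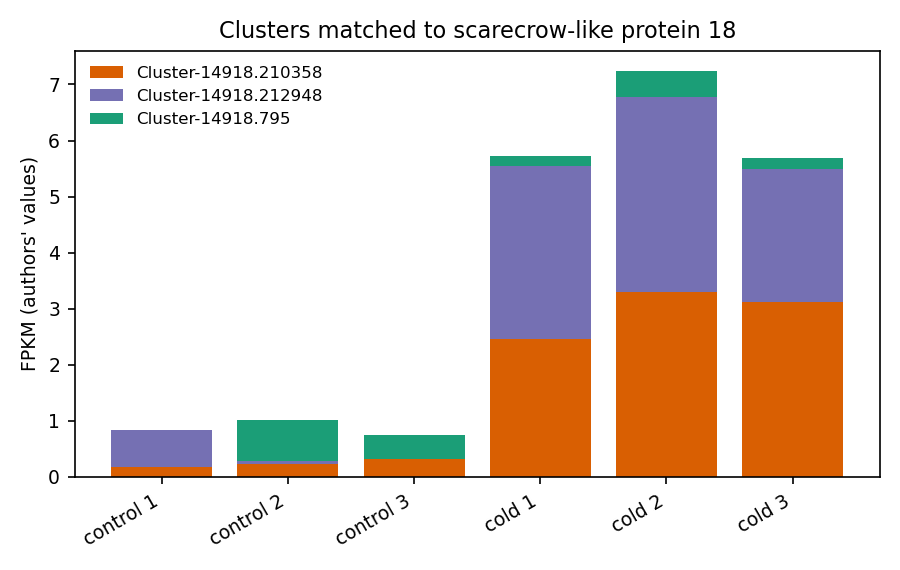
FPKM (vertical axis, authors' values) of the 3 member clusters matched to scarecrow-like protein 18, stacked by library. The sum lies between 0.75 and 1.01 in the 3 control libraries and between 5.68 and 7.24 in the 3 cold libraries.

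Genes that work with DELLA were described by lists of annotated names, as sums by best match. The counts of every list stand beside 34.6% higher and 37.7% lower among all 2296 sums tested. No cluster was annotated as the receptor GID1 or as an F-box protein of the pathway in this table of transcription factors. Of the other GRAS factors 39 sums were tested, of which 24 were lower and 11 higher in cold, and 24 and 7 on whole-library totals. Their median log2 fold change was -0.62, beside -0.08 over all sums. The GAI1 sum, at -0.65, was close to the median of these other GRAS factors. SCL3, a GRAS factor that counteracts DELLA in *A. thaliana*, had 4 tested sums among them, with 2 lower and 1 higher. Cluster-14918.97166, the SCL3 cluster that rose, had 3.39, 5.54 and 4.40 FPKM in control and 22.4, 24.0 and 24.7 FPKM in cold (log2 fold change 2.65, SE 0.19, edgeR adjusted p = 0.000179). Cluster-14918.113153, an SCL3 cluster that fell, had 24.5, 21.2 and 22.9 FPKM in control and 2.64, 1.97 and 1.82 in cold (log2 fold change -3.18, SE 0.16). The sum over the 2 clusters of that match had a log2 fold change of -2.64 (SE 0.08). SCL3 matches thus moved in both directions.

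Of the PIF, which DELLA proteins bind and hold off DNA in *A. thaliana*, 4 of 5 tested sums were higher in cold. The PIF4 sum over 5 clusters had 34.0, 36.5 and 30.7 FPKM in control and 133, 136 and 143 FPKM in cold. The groups stood far apart, at a log2 fold change of 2.51 (SE 0.07). The fifth, PIF1, had a log2 fold change of -0.14 (adjusted p = 0.123), and on whole-library totals it was among the lower ones. Of the BES1/BZR1 family 10 of 14 sums were lower and 2 higher, and 11 and 1 on whole-library totals. This list was drawn by family label. It holds a match to beta-amylase 7 besides the brassinosteroid factors that DELLA also binds. The beta-amylase 7 sum was among the lower ones (log2 fold change -2.73, SE 0.10). In this family Cluster-14918.104224, matched by Swissprot to BEH4, had 42.3, 39.9 and 37.3 FPKM in control and 0, 0 and 2.86 in cold. The sum over the 4 clusters of its match fell far less, from 99.74, 107.91 and 94.98 FPKM to 36.3, 39.7 and 40.1 FPKM (log2 fold change -0.82, edgeR adjusted p = 1.15e-06). The JAZ repressors of jasmonate, DELLA partners as well, split into 7 higher and 7 lower of 16, shares not far from those of the whole table. On whole-library totals they were 7 higher and 9 lower. For the TIFY 7 match, Cluster-14918.87992 went from 17.3, 22.1 and 16.2 FPKM to 0 in each cold library, while the sum over its 16 clusters was higher in cold (log2 fold change 0.68, edgeR adjusted p = 1.17e-07). The indeterminate-domain (IDD) zinc fingers, through which DELLA acts on genes, had 8 higher and 3 lower of 20, a share of higher sums near that of the whole table, and 6 higher and 5 lower on whole-library totals. Among them the JACKDAW-like Cluster-14918.113679 rose from 8.49, 6.88 and 7.02 FPKM to 32.3, 29.1 and 23.3 FPKM (log2 fold change 2.16, edgeR adjusted p = 0.000161). The sum over the 7 clusters of its match went from 86.5, 87.5 and 88.4 FPKM to 175, 175 and 180.4 FPKM (log2 fold change 1.42, SE 0.03). GAMYB, a factor that gibberellin induces in cereal seeds, had 1 of 2 sums higher, and that call was lost on whole-library totals.

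The CBF/DREB1 factors had 6 of 11 sums higher and 4 lower, beside 34.6% and 37.7% of all sums tested. On whole-library totals 6 were higher and 5 lower. Cluster-14918.12168, matched by NR to a DREB1B-like protein, had 0, 0.11 and 0.12 FPKM in control and 233, 224 and 243 FPKM in cold. Cluster-14918.69521, matched by NR to a DREB1D-like protein, had 18.8, 17.8 and 18.4 FPKM in control and 0.53, 0.15 and 0.73 in cold. The sum over the 2 clusters of its match had a log2 fold change of -4.57 (SE 0.10). Swissprot matched both Cluster-14918.12168 and Cluster-14918.69521 to DREB1D of *A. thaliana*. These CBF/DREB1 matches by NR therefore moved in opposite directions. Any link between them and the DELLA levels was not tested.

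**Figure D5:**
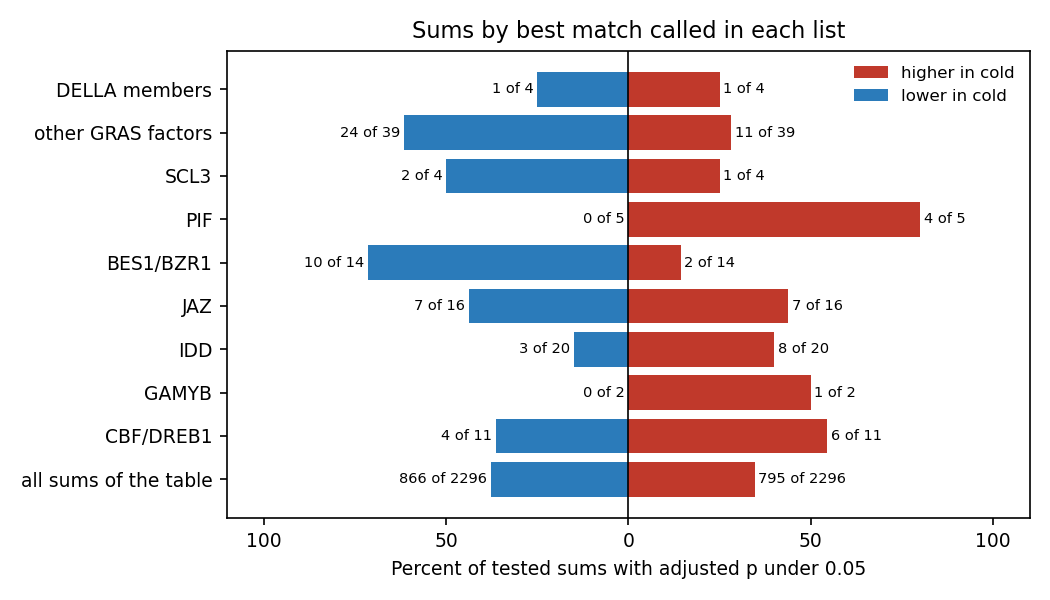
Percent of the tested sums by best match (horizontal axis) with an adjusted p under 0.05 that were higher (red, to the right) or lower (blue, to the left) in cold, for each list and for all 2296 sums of the table; the numbers beside the bars are sums called of sums tested. The members had 1 of 4 in each direction, the other GRAS factors 24 of 39 lower, and the PIF 4 of 5 higher.

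The sums whose pattern over the 6 libraries was most like that of the GAI-like match, by root mean square distance of centred log2 normalized CPM among 2028 sums with reads in every library, were the LIM domain protein WLIM2b (0.020), the zinc finger CCCH domain-containing protein 30-like (0.020) and an uncharacterized protein (0.043). Their log2 fold changes were 0.04, 0.05 and 0.04, and their adjusted p were 0.671, 0.311 and 0.376 by edgeR's quasi-likelihood test. These small changes were set by the choice, since the GAI-like sum itself had a log2 fold change of 0.05. The likeness was measured on counts. In summed FPKM WLIM2b had 17.7, 21.1 and 20.2 in control and 21.8, 23.4 and 27.2 in cold, opposite in direction to the GAI-like match.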

How the data were processed

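The deposited data are 1 table of regulators of transcription with 10251 lines for 9740 clusters, of which 492 stand on more than 1 line, always with equal values, and entered once. The estimated counts were deposited without normalization, and many are fractional. The FPKM the authors deposited are scaled to cluster length and library reads. Match scores are those of the deposited annotation. The authors' log2 ratio, q value and mark of change were not used. The submitters' processing notes name Bowtie2 2.0.6 and TopHat2 2.0.12 without a role, and for the assembler and the counter the sources used here give no name. The total of each whole library was estimated by a fit to counts, FPKM and lengths of clusters with at least 1000 bases and 5 FPKM.

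Counts, rounded, were tested with edgeR 4.0.16 in R 4.3.3 (quasi-likelihood, TMM, filterByExpr with a minimum count of 10, condition as only term, Benjamini-Hochberg over 5004 clusters or 2296 sums by best NR match, clusters without a match kept single). The SE was taken as the absolute log2 fold change divided by the root of the F statistic. The scripts were tested on simulated data. Of the calls on simulated clusters, 200 of them changed, 4.44% were false with edgeR, 28.8% with DESeq2 and 10% with limma. Replicates of a group differed by more than sampling noise (chi-square per cluster 3.12 to 6.89). This was checked only on clusters with whole counts and moderate reads, 151 to 200 clusters per pair of libraries. Alternatives were DESeq2 1.42.0, RLE factors, whole-library totals, all clusters with any reads, a minimum of 10 counts in all libraries of a group, limma 3.58.1 on log2(FPKM + 1) and log2(FPKM + 0.1), a replicate block, each library left out, and 2 other readings of the names. Floors are 3 counts. Tables and plots were made in Python 3.11.15 with numpy 2.4.6, pandas 2.3.3, scipy 1.17.1 and matplotlib 3.10.9.

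Named are all tested members and all their sums, and of the other lists at most 2 clusters in each direction with the largest change among those with an adjusted p under 0.05, groups that do not overlap and a mean of at least 1 CPM of the whole library. Where the match of a named cluster has further clusters, its sum is given too. The members and lists were chosen with earlier results of these data known.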

Additional observations from a re-analysis of the deposited data

How the results depend on the processing

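The direction and call of both GAI1 clusters, of their sum, of Cluster-14918.210358 and of the scarecrow-like 18 sum held under every alternative run. Clusters called higher in cold went from 1 to 2 with DESeq2, with 10 counts in every library of a group, with limma on log2(FPKM + 1) and with limma on log2(FPKM + 0.1), by the call of Cluster-14918.212948, ranged from 1 to 2 with each library left out, and went to 0 with NR names alone. Clusters called lower stayed at 3 with each library left out, and were 4 with whole-library totals and with limma on log2(FPKM + 1), by the call of the GAI-like cluster. Sums called higher went from 1 to 2 with DESeq2 and to 0 with NR names alone. Sums called lower went from 1 to 2 with whole-library totals and with limma at both pseudocounts, by the call of the GAI-like sum. That sum, 0.05 in the test reported, was -0.31 with whole-library totals, -0.038 without a filter, and -0.31 and -0.32 with limma at a pseudocount of 1 and of 0.1. The RGL1-like sum, 0.11, was -0.25, -0.13 and -0.23 with whole-library totals and with limma at these pseudocounts. The causes were not tested beyond the shift of all features that each scaling brings. Matching the names at the start of a word gave the same 12 clusters.

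With the replicate number as a block, edgeR called 1311 of the 5004 clusters in place of 2276, and 2 members lower, since Cluster-17215.0 had an adjusted p of 0.135. The numbers share no labelled batch. Over single clusters same-numbered libraries deviated together with correlations of -0.03 to -0.01, and 0 of 6 libraries correlated best with their own number. Over the sums the correlations were -0.097 to 0.0009, and 1 of 6 libraries correlated best with its own number. Levels under about 1 FPKM, as in all RGL1-like clusters, rest on few reads.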
